A study of Caenorhabditis elegans with 24 samples.

Results

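HSP90 and 7 of its co-chaperones were followed in RNA, in ribosome footprints and in the ratio of both across wild-type and noNSUN Caenorhabditis elegans at 20 °C and 27 °C. The members were chosen by symbol, mapped to WormBase gene identifiers, and made up 8 of the 20447 genes counted. They were hsp-90 (older name daf-21), sti-1, cdc-37, ahsa-1, daf-41, fkb-6, pph-5 and unc-45. The lower hsp-90 and daf-41 footprints of noNSUN animals were part of that choice. Every difference between the genotypes is therefore given as a description, and only the response to heat within a genotype was tested, in libraries that the genotype differences also use.

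The wild type was Bristol N2, and noNSUN was a quadruple mutant with point mutations in the catalytic cysteine of nsun-1, nsun-2 and nsun-4 and a deletion in nsun-5, the genes of the NSUN family of RNA 5-methylcytosine methyltransferases. Synchronised adults were incubated in liquid culture at 20 °C or at 27 °C, the heat shock, and lysed whole. Each lysate gave 1 RNA-seq library from rRNA-depleted RNA and 1 ribosome profiling library, in which mRNA fragments covered by a ribosome (footprints, or RPFs) are sequenced. Each combination of assay, genotype and temperature had 3 replicates, 24 libraries in all. In whole animals, fewer cells of a type and less RNA per cell cannot be told apart.

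HSP90 is an abundant ATP-driven chaperone of the cytosol that completes the folding of kinases, hormone receptors and other client proteins. Co-chaperones deliver clients to it, speed or slow its ATPase cycle, or act as enzymes on the bound client. Partners that carry tetratricopeptide (TPR) repeats, here STI-1, FKB-6, PPH-5 and UNC-45, dock on the extreme C-terminus of HSP90. Heat shock factor HSF-1 switches on many chaperone genes through heat-shock elements, arrays of alternating GAA and TTC units, and HSP90 itself is known to hold HSF-1 in check in unstressed cells.

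The docking sequence is shown because the TPR members bind HSP90 there. The run below is the end of the hsp-90 coding sequence on WBcel235 (chrV:14688381-14688425, plus strand), with the last 5 codons before the stop in capitals.
hsp-90 coding end: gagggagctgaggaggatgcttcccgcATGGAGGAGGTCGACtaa

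Upstream stretches of 5 members follow, because all of them hold a pair of heat-shock units in the 250 bases before the annotated gene start. Capitals mark the fixed letters of TTCNNGAA or GAANNTTC, each of which reads the same on both strands, and overlapping matches were kept. Both hsp-90 stretches lie on the plus strand (chrV:14684828-14684857 and chrV:14684888-14684917), 90 to 61 and 30 to 1 bases before the start. Those of sti-1 (chrV:773473-773502), fkb-6 (chrV:20846083-20846112) and unc-45 (chrIII:491352-491421) are also on the plus strand, and that of ahsa-1 (chrV:15085526-15085585) is on the minus strand.
hsp-90 distal: agtttTTCtcGAAtgTTCtacaaaaatgtt
hsp-90 proximal: gccctcaatttttctTTCtcGAAagTTCtc
ahsa-1: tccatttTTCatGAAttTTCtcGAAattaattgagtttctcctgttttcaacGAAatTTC
sti-1: gccattggcaaattTTCtcGAAgaattcct
fkb-6: gttttgtgcgttTTCtgGAAaaagcgccgc
unc-45: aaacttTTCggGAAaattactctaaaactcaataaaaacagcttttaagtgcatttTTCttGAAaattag

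Among 19619 upstream windows of the same length, 15% held TTCNNGAA and 15.6% held GAANNTTC. Either pair was found in 27% of these windows, beside 5 of the 8 windows of members. Where both overlap they form a run of 3 units, which was found in 1.17% of the windows in the form that starts with TTC and in 0.607% in the form that starts with GAA. The hsp-90 window held 2 runs of 3 units that start with TTC, and the ahsa-1 window held 1 of each form, sharing bases. No run of 3 units was found in the windows of the other 6 members, and daf-41, cdc-37 and pph-5 had no match to either pair. A match is a description of the letters only. Of the 8 windows, 4 end in the letters cag (daf-41, unc-45, pph-5 and fkb-6), so an annotated start may be a trans-splice site. Part of the hsp-90 window also lies within C47E8.4, a gene on the other strand, and the cdc-37 window overlaps the coding gene W08F4.3.

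The RNA libraries held 1918731 to 3412334 counts and the footprint libraries 22761 to 396184, so a footprint value rests on far fewer counts. Levels are given as CPM, counts relative to the library size, which here is the TMM-scaled sum over the genes tested in that assay. On this scale 3 counts correspond to 0.887 to 1.54 CPM in RNA and to 10.2 to 181 CPM in footprints. All markers of intestine and yolk, oocytes, body wall muscle and neurons were detected in every RNA library, while the 6 sperm markers summed to 2.38 CPM at most in RNA. One lysate stood apart: in the RNA of wild-type replicate 1 at 20 °C the 8 intestine and yolk markers summed to 48878 CPM, against 95790 and 99725 in the other replicates, and the 6 muscle markers to 10149 CPM, against 5149 and 5675. The yolk sums of the 6 libraries at 27 °C were 53173 to 74606 CPM, below the other 5 libraries at 20 °C (82372 to 99725 CPM), and their part in the results below was not tested. RNA of nsun-5, counted over what its deletion leaves, was 22.5 ± 3.51 CPM in wild type against 12.4 ± 1.52 in noNSUN at 20 °C (SD, n = 3), and 19.5 ± 3.17 against 14.2 ± 1.95 at 27 °C, whereas the point mutations of the other 3 genes cannot be checked by counts.

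Per kilobase of exon, hsp-90 RNA was the most abundant of the members in every group, followed by daf-41. In wild type at 20 °C hsp-90 stood at 1198 ± 22 CPM per kb and daf-41 at 297 ± 23.6 (SD, n = 3). The adaptor gene sti-1 (150 ± 11.7), the ATPase activator gene ahsa-1 (138.6 ± 4.96) and the immunophilin gene fkb-6 (138.6 ± 16.2) lay next to each other and overlapped in their replicate values. Below them came cdc-37 (82.8 ± 8.66), unc-45 (47 ± 1.86) and pph-5 (38.4 ± 5.47), each without overlap with the next. The order of RNA levels was the same in the other groups except that ahsa-1 and fkb-6, which overlapped, changed places in noNSUN at 20 °C, and sti-1 was apart from the next gene in noNSUN at 27 °C only.

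Footprints gave another order. Per kilobase of coding sequence, daf-41 came first in every group, at 7153 ± 2214 CPM per kb in wild type at 20 °C, with hsp-90 next at 5376 ± 1180, and both overlapped in all 4 groups. The immunophilin gene fkb-6 followed at 1020 ± 227 and cdc-37 at 605 ± 58.6, then sti-1 at 476 ± 33.4, while ahsa-1, pph-5 and unc-45 (177 ± 92.1, 130 ± 32.4 and 128 ± 46.7) overlapped. In wild type at 27 °C sti-1 and cdc-37, which overlapped there, changed places, and unc-45 was above pph-5 in both groups at 27 °C. The footprint to RNA ratio in wild type at 20 °C placed daf-41 at the 98.1st percentile of the 1599 genes tested in both assays, fkb-6 at the 94.3rd and cdc-37 at the 93.7th. It placed hsp-90 at the 85.4th percentile, sti-1 at the 73.6th, unc-45 at the 62.3rd and ahsa-1 at the 21.5th. The place of ahsa-1 rested on 3, 19 and 13 footprint counts. In noNSUN at 20 °C, wild type at 27 °C and noNSUN at 27 °C, ahsa-1 lay at percentiles 30.1, 52.7 and 61.5. Those of unc-45 were 28.6, 76.6 and 67.9.

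**Figure D1:**
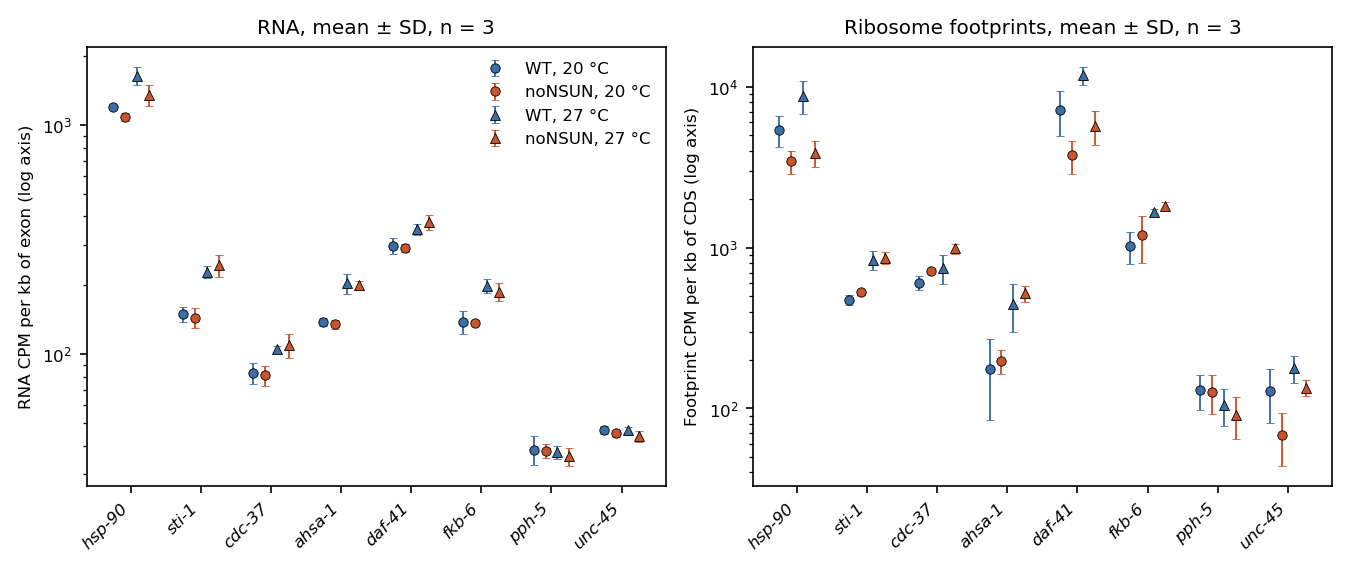
Levels of the 8 members in each group, as RNA CPM per kilobase of exon (left) and footprint CPM per kilobase of coding sequence (right), both on log axes; points are means of 3 libraries, bars are SD, circles are 20 °C and triangles 27 °C. In RNA hsp-90 lies above all co-chaperones, while in footprints daf-41 lies at or above hsp-90 in every group.

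The first question was how the HSP90 machinery responded to heat. In wild type the RNA of 3 members rose at 27 °C: sti-1 by 1.53-fold, ahsa-1 by 1.48-fold and fkb-6 by 1.44-fold. They are 3 of 8 members tested, where 0.472% of the 10815 genes tested rose and 0.472% fell, by edgeR's quasi-likelihood test at a Benjamini-Hochberg adjusted p under 0.05. In noNSUN 2 members rose, sti-1 by 1.69-fold and ahsa-1 by 1.47-fold, where 0.472% of genes rose and 0.564% fell. The median log2 change of the members was 0.40 in wild type and 0.41 in noNSUN, beside -0.01 and 0.01 over all genes, and 6 of 8 members were positive in each genotype, beside 48.5% and 51.4% of all genes.

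Same-numbered RNA libraries deviated alike from their group means, so the fit with the replicate number as a block is given where it changes the call. With that replicate block 5 members were called higher in wild type, where 1.82% of genes were called higher and 2.42% lower, with hsp-90 and cdc-37 added. In noNSUN 6 were called, where 1.86% of genes were called higher and 2.24% lower, with hsp-90, cdc-37, daf-41 and fkb-6 added. Calls over all genes depended on single libraries, at 49 to 244 in wild type and 50 to 67 in noNSUN without 1 library, against 102 and 112 with all. The counts of members were sensitive to single libraries too. In wild type the count was 0 without replicate 3 at 20 °C, without replicate 1 or without replicate 3 at 27 °C, 1 (ahsa-1) without replicate 2 at 27 °C, 2 (sti-1 and ahsa-1) without replicate 2 at 20 °C, and 3 without replicate 1 at 20 °C, the library with few yolk transcripts (sti-1 0.55 ± 0.11, ahsa-1 0.54 ± 0.10 and fkb-6 0.42 ± 0.09 on the log2 scale, adjusted p = 0.019, 0.00739 and 0.031). In noNSUN it was 1 (sti-1) without replicate 1 or without replicate 3 at either temperature, and 2 without replicate 2 at either temperature.

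**Figure D2:**
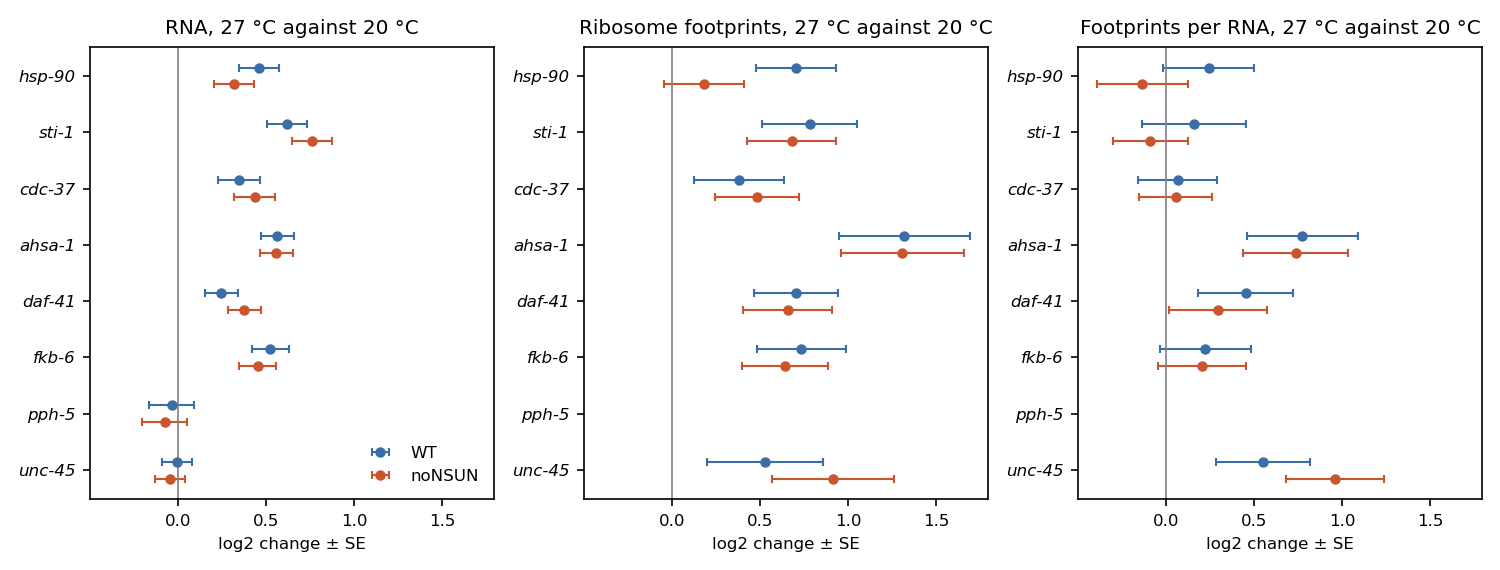
Log2 change at 27 °C against 20 °C of each member in RNA, footprints and footprints per RNA, with SE from the edgeR fits, wild type in blue and noNSUN in orange. In RNA 6 members lie to the right of 0 and pph-5 and unc-45 at about 0 in both genotypes; pph-5 had too few footprints to be tested.

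The chaperone gene hsp-90 (WBGene00000915, chromosome V, 14684918 to 14688545, plus strand) had 2772, 2834 and 2875 RNA CPM in the wild-type libraries at 20 °C and 4154, 3477 and 4019.7 CPM in those at 27 °C. The noNSUN libraries had 2589, 2458 and 2652 CPM at 20 °C, against 3412, 2819 and 3362 CPM at 27 °C. All values at 27 °C were above all values at 20 °C in both genotypes, and in noNSUN all were below those of wild type at the same temperature. The log2 change with heat was 0.46 ± 0.11 in wild type (SE; adjusted p = 0.0908, and 0.00232 with the replicate block) and 0.32 ± 0.11 in noNSUN (adjusted p = 0.332, and 0.0336 with the block). Over all 17 alternatives its adjusted p ranged from 0.000328 to 0.999 and from 0.00439 to 1. By counts, not per length, hsp-90 took place 11 to 13 among all genes in the RNA libraries at 20 °C and place 6 to 9 at 27 °C.

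The adaptor gene sti-1 (chromosome V, 773518 to 774775), whose product hands clients from HSP70 to HSP90, had 151, 176 and 167 RNA CPM in wild type at 20 °C and 269, 240.3 and 247 at 27 °C. Its noNSUN levels were 172, 164 and 141 CPM at 20 °C and 282, 234.6 and 289.7 at 27 °C. The groups at 20 °C and at 27 °C did not overlap in either genotype. Its log2 change was 0.62 ± 0.11 in wild type (adjusted p = 0.0172) and 0.76 ± 0.11 in noNSUN (adjusted p = 0.00434), the highest of the members in both. Over the alternatives, left-out libraries included, these p-values ranged from 0.000223 to 0.611 and from 6.99e-07 to 0.645.

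The gene for the ATPase activator AHSA-1 (chromosome V, 15084059 to 15085385), known as Aha1 in other species, had 161, 170.2 and 159 RNA CPM in wild type at 20 °C and 265, 217 and 242 at 27 °C. In noNSUN ahsa-1 had 153, 168 and 159.97 CPM at 20 °C and 243, 223 and 242 at 27 °C. Replicates of each group were close together and the temperatures did not overlap. The log2 change was 0.56 ± 0.09 in both genotypes (SE; adjusted p = 0.0103 in wild type and 0.0107 in noNSUN), with ranges of 0.000124 to 0.794 and 0.000135 to 0.865 over the alternatives.

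The immunophilin gene fkb-6 (chromosome V, 20846158 to 20847727), coding for a TPR-bearing peptidyl-prolyl isomerase, had 177, 219.6 and 218 RNA CPM in wild type at 20 °C and 309, 272 and 302 at 27 °C. In noNSUN it had 199, 204 and 207 CPM at 20 °C and 286, 251 and 298 at 27 °C. Again no value at 20 °C reached the values at 27 °C. The change was 0.52 ± 0.11 on the log2 scale in wild type (adjusted p = 0.0349) and 0.45 ± 0.11 in noNSUN (adjusted p = 0.0713, and 0.00766 with the replicate block), with ranges of 0.000654 to 0.794 and 0.002 to 1 over the alternatives.

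The kinase-specific co-chaperone gene cdc-37 (chromosome II, 577837 to 580593) had 110.2, 118 and 135 RNA CPM in wild type at 20 °C and 159, 152 and 150.3 at 27 °C, and the noNSUN values were 122, 106 and 128 at 20 °C and 154, 145 and 181 at 27 °C. Temperatures were apart in both genotypes, by a narrow margin. Its log2 change was 0.35 ± 0.12 in wild type (adjusted p = 0.27, and 0.0373 with the block) and 0.44 ± 0.12 in noNSUN (adjusted p = 0.132, and 0.0102 with the block), with ranges of 0.00621 to 0.957 and 0.00185 to 1 over the alternatives.

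The p23 gene daf-41 (chromosome III, 5273805 to 5274765), whose product is known to bind ATP-bound HSP90 and to slow its cycle, had 212, 199 and 233 RNA CPM in wild type at 20 °C and 266, 238 and 257 at 27 °C. In noNSUN daf-41 had 213, 199.8 and 216 CPM at 20 °C and 294, 267 and 256 at 27 °C. The temperatures did not overlap, but lay close to each other in wild type. Its log2 change was 0.24 ± 0.09 in wild type (adjusted p = 0.368, and 0.102 with the block) and 0.38 ± 0.09 in noNSUN (adjusted p = 0.0963, and 0.0109 with the block), with ranges of 0.102 to 0.999 and 0.0109 to 1 over the alternatives.

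The remaining co-chaperone genes stayed near their level at 20 °C. The phosphatase gene pph-5 (chromosome V, 19190547 to 19199272) had 60.1 to 80.01 RNA CPM over the 6 libraries at 20 °C and 59.5 to 73.9 at 27 °C. The gene for the myosin chaperone UNC-45 (chromosome III, 491547 to 502625) had 150.5 to 169 CPM at 20 °C and 142.4 to 165 at 27 °C. The log2 change of pph-5 was -0.04 ± 0.13 in wild type, beside -0.08 ± 0.13 in noNSUN, and that of unc-45 was -0.01 ± 0.08 beside -0.04 ± 0.09 (adjusted p of at least 0.947), and the temperatures overlapped in each case. Taking all members, 6 of 8 had every value at 27 °C above every value at 20 °C in wild type and the same number in noNSUN, beside 6.84% and 9.51% of all genes tested, and no member had every value lower, beside 6.05% and 9.36%.

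**Figure D3:**
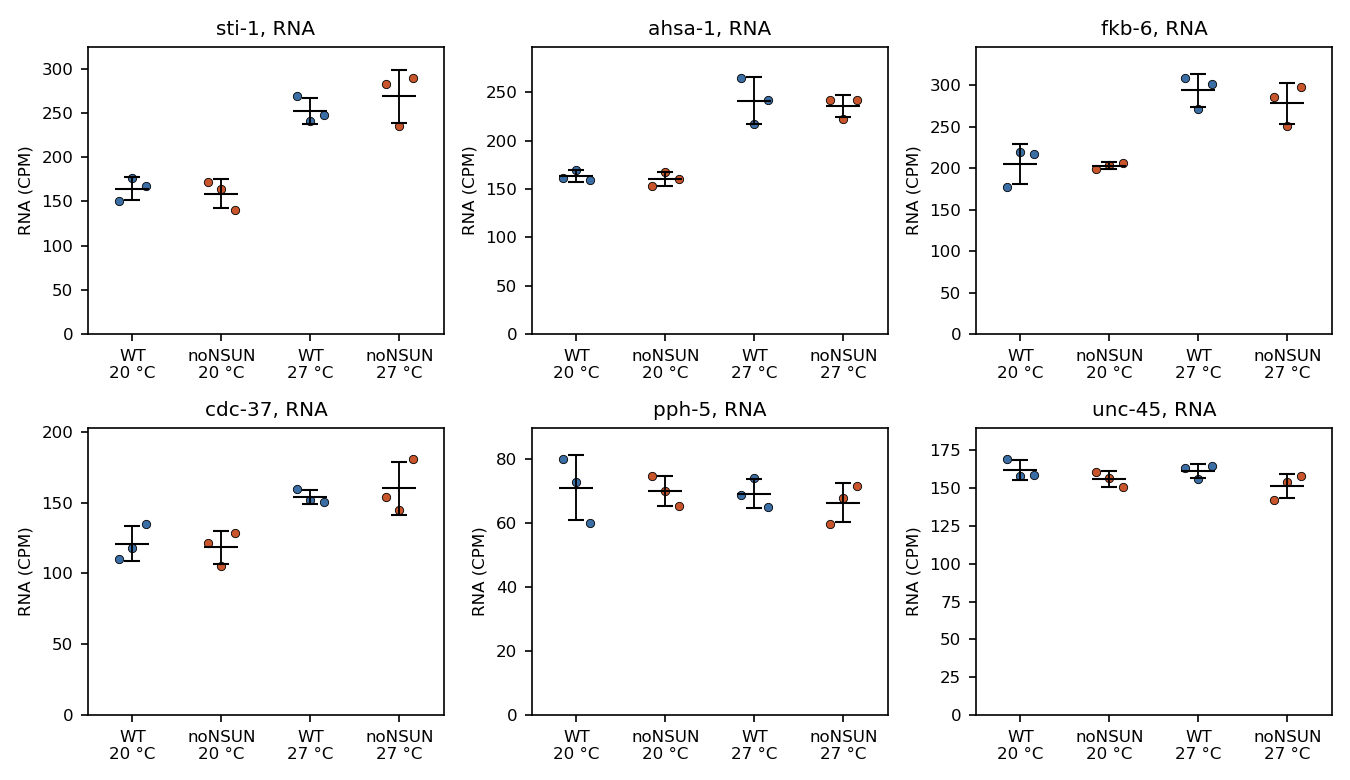
RNA CPM of 6 co-chaperones in each library, with the group mean (line) and SD (bars), n = 3, wild type in blue and noNSUN in orange. For sti-1, ahsa-1, fkb-6 and cdc-37 the points at 27 °C lie above those at 20 °C in both genotypes, while those of pph-5 and unc-45 overlap.

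The second question was whether footprints followed. Of the 8 members, 7 passed the filter on low counts and pph-5 did not, with 2 to 53 footprint counts a library. In wild type no member was called, where 0.924% of the 1624 genes tested rose and 0.369% fell. An unadjusted p under 0.05 in edgeR was found for 5 of 7 members there, beside 171 of the 1624 genes. In noNSUN it was found for 5 of 7 members, beside 269 of the genes. DESeq2 called 0 members in wild type as well, beside 24 genes. In noNSUN 1 member, ahsa-1, was called, where 1.05% of genes rose and 2.4% fell. This gene passed the filter on low counts through its libraries at 27 °C, where it is high, since most at 20 °C fell below the cutoff. Its call is therefore not independent of the filter, and without the filter it was not called. The same limit holds for its part in the counts of unadjusted p, of positive changes and of groups apart. Each of these counts includes ahsa-1 in both genotypes. All 7 log2 changes of the members tested were positive in both genotypes, beside 50.1% and 50.3% of all genes, with medians of 0.70 and 0.66. The untested pph-5 had lower mean footprints at 27 °C than at 20 °C. Its means were 157 ± 41.1 against 193 ± 48.3 CPM in wild type and 136 ± 40.4 against 189 ± 50.5 in noNSUN (SD, n = 3). Every value at 27 °C lay above every value at 20 °C in 5 of 7 members in wild type and in 6 of 7 in noNSUN, beside 6.65% and 10.3% of genes, and every value lower in none, beside 6.96% and 11% of genes. Without wild-type replicate 1 at 20 °C the count of members called in wild type was also 0, and the log2 change of hsp-90 was 0.53 ± 0.23, that of daf-41 0.52 ± 0.24 and that of ahsa-1 1.09 ± 0.37.

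Footprints of ahsa-1 stood at 83.2, 191 and 272 CPM in wild type at 20 °C and 551, 282 and 543 at 27 °C. The noNSUN libraries had 241, 171 and 197 CPM at 20 °C and 506, 495 and 602 at 27 °C. The groups were apart, more widely in noNSUN, and the values at 20 °C rested on 3 to 19 counts. The log2 change was 1.32 ± 0.37 in wild type (adjusted p = 0.0848) and 1.31 ± 0.35 in noNSUN (adjusted p = 0.0285), and the call in noNSUN was lost without any single library of its groups, with a range of 0.0093 to 0.196 over all alternatives.

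Footprints of sti-1 were 471, 421 and 482 CPM in wild type at 20 °C and 685, 886 and 844.5 at 27 °C, while noNSUN had 528, 489 and 511 at 20 °C and 829.98, 769 and 903 at 27 °C. Those of fkb-6 were 1331, 1024 and 1612 CPM in wild type at 20 °C and 2217, 2054 and 2232 at 27 °C, while noNSUN had 979.8, 1735 and 1928 at 20 °C and 2258, 2317 and 2495 at 27 °C. Neither gene overlapped between temperatures. Their log2 changes were 0.78 ± 0.27 and 0.73 ± 0.25 in wild type (adjusted p = 0.192 for both), beside 0.68 ± 0.25 and 0.64 ± 0.24 in noNSUN (adjusted p = 0.143 and 0.153), so neither passed the test.

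Footprints of cdc-37 were 804, 662 and 733 CPM in wild type at 20 °C and 1115, 805 and 784 at 27 °C, which overlapped, and 859, 879.6 and 865 against 1187, 1287 and 1118.5 in noNSUN, which did not. Footprints of unc-45 were 499, 381 and 230.3 CPM in wild type at 20 °C and 591, 403 and 543 at 27 °C, and 256, 219.9 and 118 against 390.1, 434 and 344 in noNSUN, where they were apart. The log2 changes of unc-45 were 0.53 ± 0.33 and 0.91 ± 0.34 (adjusted p = 0.645 and 0.148), on 3 to 18 counts in 5 of the libraries at 20 °C.

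No footprint to RNA ratio was called among the 1599 genes tested in either genotype (0% higher and 0% lower), with 86 genes in wild type and 184 in noNSUN at an unadjusted p under 0.05, and 1 and 12 genes called by DESeq2. Among the members, an unadjusted p under 0.05 was found for 1 in wild type (ahsa-1) and for 2 in noNSUN (ahsa-1 and unc-45). The ratio used the same filter on footprints, which ahsa-1 passed through its libraries at 27 °C. Neither the p of ahsa-1 nor the separation of its ratios is therefore independent of the filter. The log2 change of the ratio in wild type and noNSUN was 0.77 ± 0.32 and 0.73 ± 0.30 for ahsa-1 (adjusted p = 0.823 and 0.348) and for unc-45 0.55 ± 0.27 and 0.96 ± 0.28 (adjusted p = 0.823 and 0.219). In noNSUN these were the 2 of 7 members whose ratio at 27 °C lay above every value at 20 °C, beside 9.19% of genes, and no member's ratio lay below every value, beside 8.38%. In wild type the ratios of all 7 overlapped between temperatures, where 6.38% of genes were apart with higher and 4.69% with lower ratios at 27 °C.

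The third comparison was noNSUN against wild type, which the choice of members used, so its values are a description without a test. Footprints of hsp-90 were 8486, 12462 and 13065 CPM in wild type at 20 °C and 6059.8, 8380.5 and 7278 in noNSUN. The wild-type libraries at 27 °C had 16261, 15867 and 23586 CPM, those of noNSUN 9777, 6678 and 8131. The genotypes did not overlap at either temperature, but at 20 °C the highest noNSUN library and wild-type replicate 1, that of the lysate that stood apart, were close to each other. The log2 change was -0.65 ± 0.23 at 20 °C and -1.18 ± 0.23 at 27 °C (SE), which is 0.636 and 0.443 times the wild-type level. Without that wild-type library the change at 20 °C was -0.84 ± 0.23.

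As a share of all footprints in a library, hsp-90 ranged from 0.417% (95% Wilson interval 0.378% to 0.46%) in noNSUN replicate 1 at 20 °C to 1.72% (1.56% to 1.9%) in wild-type replicate 3 at 27 °C, the shallowest library. Such intervals cover counting error only, since reads were counted without molecular identifiers. By footprint counts hsp-90 took place 7 among all genes in the 3 wild-type libraries at 20 °C and place 2, 4 and 2 at 27 °C. In noNSUN it took place 8 to 11 at 20 °C and 5 to 10 at 27 °C. The log2 change of its footprints with heat was 0.70 ± 0.22 in wild type (adjusted p = 0.156), with all values at 27 °C above those at 20 °C, and 0.18 ± 0.23 in noNSUN (adjusted p = 0.742), with overlapping values. The difference between these heat responses was -0.52 ± 0.32 on the log2 scale.

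**Figure D4:**
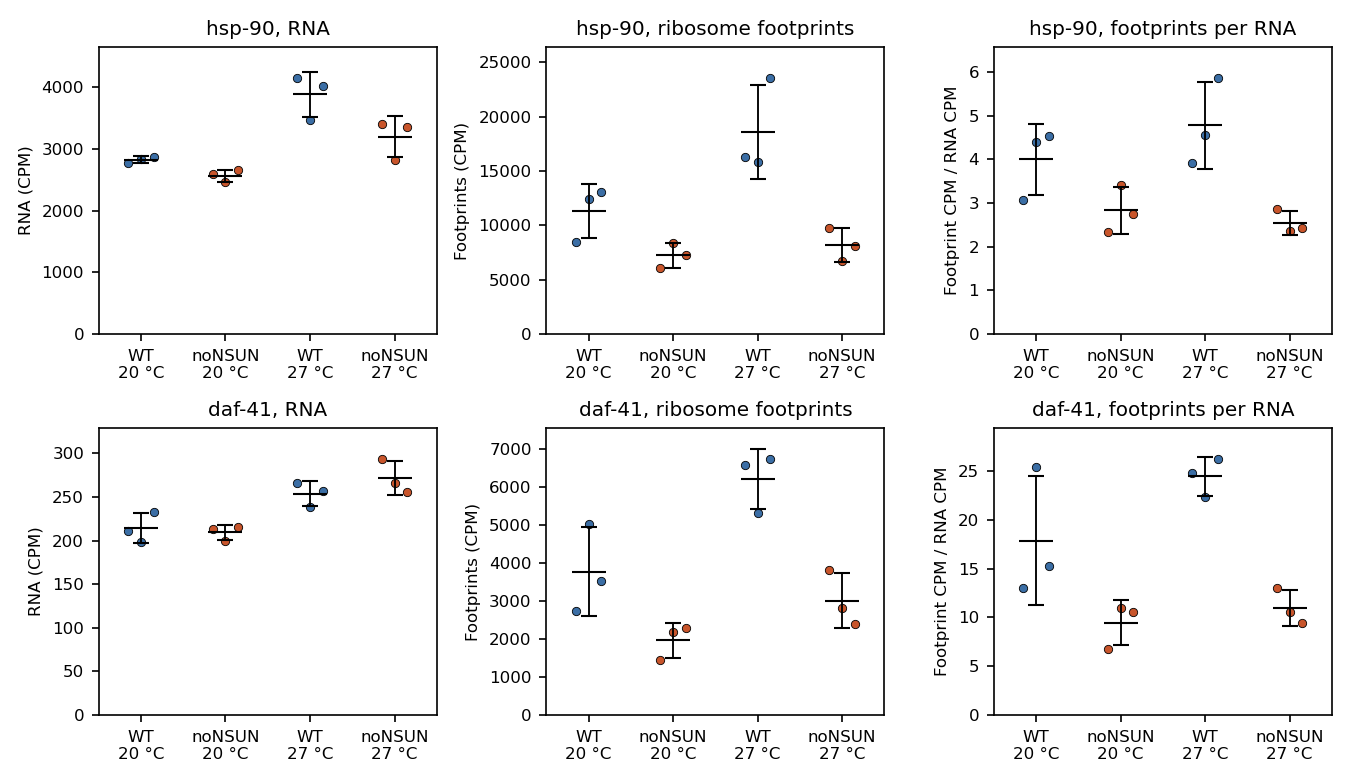
RNA CPM, footprint CPM and their ratio for hsp-90 (top) and daf-41 (bottom) in each library or lysate, with the group mean (line) and SD (bars), n = 3. Footprints of both genes are lower in noNSUN (orange) than in wild type (blue) at both temperatures, while their RNA differs much less.

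RNA of hsp-90 differed by -0.14 ± 0.11 at 20 °C and -0.28 ± 0.11 at 27 °C, so the footprint to RNA ratio was lower as well. All noNSUN values of hsp-90 RNA were below those of wild type at both temperatures, as in 4.03% of genes at 20 °C and 4.43% at 27 °C, and no other member's RNA was apart between genotypes, with 4.37% and 4.62% of genes higher throughout. The ratio was 3.06, 4.4 and 4.54 in the wild-type lysates at 20 °C, and noNSUN had 2.34, 3.41 and 2.74. At 27 °C the lysates of wild type had 3.91, 4.56 and 5.87, those of noNSUN 2.87, 2.37 and 2.42. The genotypes overlapped at 20 °C and were apart at 27 °C. The log2 change of the ratio was -0.52 ± 0.26 and -0.89 ± 0.26, and among the 1599 genes it lay at the 15.3rd and the 1.31st percentile.

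Footprints of the p23 gene daf-41 were also lower in noNSUN. They were 2745, 5047 and 3538 CPM in wild type at 20 °C and 1447, 2199 and 2282 in noNSUN. The wild-type libraries at 27 °C had 6598.5, 5316 and 6756 CPM, beside 3818, 2815 and 2409 in those of noNSUN. Every noNSUN value was below every wild-type value at the same temperature, and the lowest wild-type library at 20 °C was again replicate 1. The log2 change was -0.98 ± 0.25 at 20 °C and -1.02 ± 0.24 at 27 °C, or 0.508 and 0.492 times wild type, beside -0.03 ± 0.09 and 0.10 ± 0.09 in RNA, and without replicate 1 it was -1.17 ± 0.25 at 20 °C.

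Per lysate, the daf-41 ratio was 13, 25.4 and 15.2 in wild type against 6.78, 11 and 10.6 in noNSUN at 20 °C, and 24.8, 22.3 and 26.3 against 13, 10.6 and 9.42 at 27 °C. The genotypes were apart at both temperatures, narrowly at 20 °C, where 7.88% of genes had every ratio lower in noNSUN and 11% every ratio higher, and daf-41 was the only member of the first kind, with none of the second. At 27 °C 2 members were lower throughout (hsp-90 and daf-41, beside 5% of genes) and 1 higher (fkb-6, beside 7.63%). The log2 change of the ratio was -0.96 ± 0.28 at 20 °C and -1.12 ± 0.27 at 27 °C, at the 3.13th and the 0.5th percentile. The log2 change of daf-41 footprints with heat was 0.70 ± 0.24 in wild type and 0.66 ± 0.25 in noNSUN (adjusted p = 0.188 and 0.153), and the temperatures did not overlap in either genotype.

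Among the other co-chaperones, footprints of unc-45 were lower in noNSUN, by -0.77 ± 0.37 at 20 °C and -0.39 ± 0.31 at 27 °C on the log2 scale, with overlapping values at both temperatures, beside -0.65 ± 0.23 for hsp-90 at 20 °C, a difference between genes that was not tested. The log2 change of the unc-45 ratio was -0.70 ± 0.31 at 20 °C and -0.30 ± 0.25 at 27 °C. Footprints of cdc-37 were higher, by 0.26 ± 0.25 and 0.36 ± 0.24, without overlap at either temperature, those of sti-1 did not overlap at 20 °C (0.17 ± 0.27) and those of fkb-6 at 27 °C (0.11 ± 0.24). Footprints of ahsa-1 differed by 0.14 ± 0.41 and 0.13 ± 0.32, and RNA of these 5 genes and of pph-5 differed by -0.09 to 0.09 at either temperature. At 20 °C 2 of 7 members had all footprint values lower in noNSUN and 2 all values higher, beside 8.74% and 10.9% of genes, and the same counts at 27 °C stood beside 5.67% and 7.94%.

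**Figure D5:**
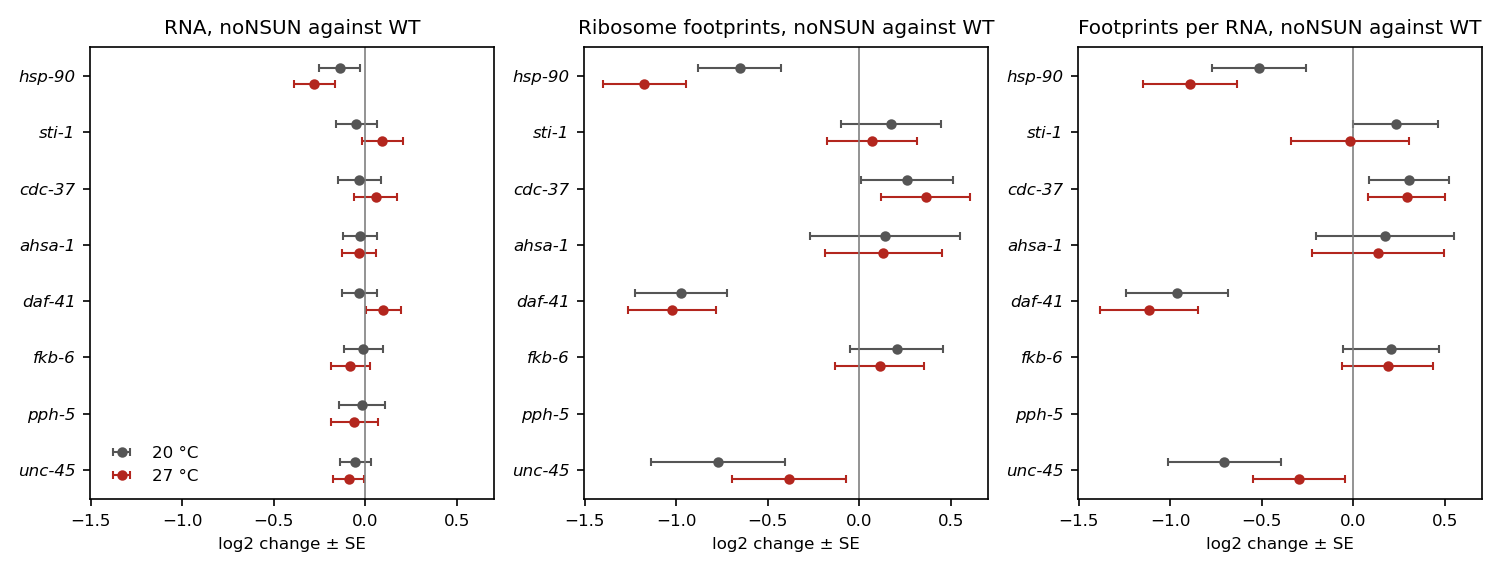
Log2 change in noNSUN against wild type of each member in RNA, footprints and footprints per RNA at 20 °C (grey) and 27 °C (red), with SE from the edgeR fits. RNA changes lie between -0.28 and 0.10, while the footprints and ratios of hsp-90 and daf-41 lie left of 0 at both temperatures; the choice of members used this contrast.

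The tRNA that reads UUG leucine codons is a target of NSUN-2 at its wobble base, so the codon content of the members is given. Its link to the footprint differences was not tested. UUG made up 1.28% of the 702 codons of hsp-90 (9 codons) and 1.14% of the 175 codons of daf-41 (2 codons), beside 2.02% over all coding sequences. The lowest share was 0.496% in cdc-37 (2 of 403 codons), and unc-45 (24 of 961) and fkb-6 (12 of 431) lay above the overall share, at 2.5% and 2.78%. Leucine codons of any kind made up 7.83% of hsp-90 and 6.86% of daf-41, below the overall 8.63%, and 11% of unc-45, above it. Proline codons made up 2.56% of hsp-90 and 2.86% of daf-41, beside 4.91% over all coding sequences. The highest proline share of a member was 4.84%, in pph-5. Neighbouring genes shared exon bases with hsp-90 (4 bases), ahsa-1 (89) and fkb-6 (26), all on the other strand, and reached at most 176, 53 and 17 RNA counts in a library where the members had at least 6080, 397 and 505.

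The genes whose RNA was most like that of hsp-90 over the 12 RNA libraries were Y76B12C.3 (Pearson r = 0.94 of log2 CPM), the J-domain gene dnj-12 (r = 0.91) and the calnexin gene cnx-1 (r = 0.91), among 10814 genes. Of the members, fkb-6 was eighth in this order (r = 0.89) and ahsa-1 came at place 25 (r = 0.87), while unc-45 (r = 0.11) and pph-5 (r = -0.23) were not alike. Over the 12 footprint libraries the gene most like hsp-90 among 1623 was daf-41 (r = 0.92), followed by ldp-1 (r = 0.88) and the calreticulin gene crt-1 (r = 0.88), and the choice of members had used the lower footprints of both hsp-90 and daf-41 in these libraries. Of the other members unc-45 came at place 130 (r = 0.50), followed by ahsa-1 (r = 0.30), sti-1 (r = 0.29), fkb-6 (r = 0.25) and cdc-37 (r = -0.34). In RNA, sti-1, ahsa-1 and fkb-6 correlated with one another at r = 0.94 to 0.95. These correlations pool genotypes and temperatures, their points share library and depth, and they are descriptions.

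The wider HSP90 genes were examined for heat as lists. Of 7 HSP70 partners, 1 rose in the RNA of wild type and none fell, beside 0.472% of all genes in each direction. It was hip-1, the gene for an HSP70-interacting protein, by 0.68 ± 0.13 on the log2 scale (adjusted p = 0.0175). Its footprints also rose in wild type, by 1.25 ± 0.29 (adjusted p = 0.0168), where 5 of the 7 were tested and 0.924% of all genes rose. In noNSUN the log2 change of hip-1 was 0.57 ± 0.12 in RNA (adjusted p = 0.0504, and 0.00498 with the replicate block) and 0.06 ± 0.27 in footprints (adjusted p = 0.945), and 0 of the HSP70 partners passed the test there.

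Of 6 further HSP90-binding or TPR proteins, 1 fell in wild-type RNA, the AAA ATPase gene ruvb-1 (-0.49 ± 0.10, adjusted p = 0.0416), beside 0.472% of all genes, and none was called in noNSUN RNA or in footprints (3 tested). None of the HSP90 genes of other compartments (enpl-1 and hsp-75), the genes of HSF-1 regulation (hsf-1 and hsb-1) or the 6 myosin genes was called in any of the heat comparisons in which it was tested, and hsp-75, hsf-1 and hsb-1 had too few footprints to be tested there or in the ratio. With the replicate block, 3 HSP70 partners rose in wild-type RNA (dnj-12, bag-1 and hip-1) and 2 in noNSUN (dnj-12 and hip-1), beside 1.82% and 1.86% of all genes called higher. With 2.42% and 2.24% of all genes called lower, ruvb-1 fell in wild type (-0.49 ± 0.09, adjusted p = 0.0032), and RNA of hsf-1 was called lower in both genotypes, with log2 changes of -0.37 ± 0.10 (adjusted p = 0.0461) in wild type and -0.54 ± 0.10 (adjusted p = 0.00337) in noNSUN, against adjusted p = 0.456 and 0.191 without the block.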

How the data were processed

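The study calls its replicates biological but the labels do not say what a replicate number stands for, so p-values measure the spread between these samples. The authors trimmed reads (Trimmomatic 0.39), removed rRNA reads, aligned with HISAT2 2.1.0 to WBcel235 and deposited unnormalised counts per gene: HTSeq counts for RNA, and in-frame footprint counts on the longest coding sequence without its first codons for RPFs. The strand and multimapping settings of the RNA counting are not given in the sources used here. Genes were annotated with the Ensembl annotation of the same build, in which 20159 of 20447 identifiers were found, and sequences were read from the RefSeq copy of that assembly. No row lacked a gene name.

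Counts were fitted in R 4.3.3 with edgeR 4.0.16 (filterByExpr, minimum count 10 and total 15; TMM; 1 coefficient per group; quasi-likelihood tests, two-sided, Benjamini-Hochberg over all genes of a fit). Translation efficiency was the footprint against RNA term of each group, fitted over all 24 libraries and compared between temperatures or between genotypes. SE is the log2 change divided by the t value equivalent to its p. The fits recovered known folds in simulated counts. Every planted fold was larger than the members' RNA changes with heat, and no replicate effect was put in. That check therefore does not cover changes of this size or the likeness of same-numbered libraries. DESeq2 1.42.0, other scalings, a GC and length offset, the replicate block, and leaving out libraries were alternatives. Likeness used log2(CPM + 0.5). Same-numbered RNA libraries correlated in their deviations from group means in every pair of both heat comparisons (r = 0.20 to 0.66 in wild type, 0.24 to 0.54 in noNSUN), which pairs them by the data, not by a stated batch.

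The genes named were the 8 members, up to 2 called genes of largest rise and fall in each list of related genes, and the 3 genes most like hsp-90 in each assay; dnj-12, bag-1 and hsf-1 under the block were named after their values were seen. The members and lists were chosen with earlier results of these data known.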

Additional observations from a re-analysis of the deposited data

How the results depend on the processing

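In RNA the count of members called in wild type was 3 and moved to 0 with the compared libraries only and to 5 with the replicate block, with or without the GC and length offset. In noNSUN it was 2 and moved to 4 with DESeq2 and to 6 with the replicate block, with or without that offset. Leaving out libraries or replicate numbers gave 0 to 4 members in wild type and 0 to 5 in noNSUN. Calls over all genes moved as well: in wild type they were 583, 8 and 13 without replicate 1, 2 and 3, and in noNSUN 587, 15 and 13. The log2 changes in wild type then ranged from 0.51 to 0.70 for sti-1, 0.48 to 0.66 for ahsa-1 and 0.39 to 0.63 for fkb-6. Over all genes the RNA calls were 102 in wild type and 112 in noNSUN, and became 459 and 443 with the block, 522 and 449 with block and offset, 178 and 176 with DESeq2, and 24 and 239 with the compared libraries only. For footprints in wild type the count of 0 became 1 with the replicate block and the offset together (hsp-90, adjusted p = 0.0297). In noNSUN the 1 member called became 0 without the filter and with DESeq2, and 2 with the offset, with or without the block, and ranged from 0 to 1 when libraries were left out. In footprints the numbers do not pair the libraries (r = -0.09 to 0.15 in the heat comparisons and -0.02 to 0.27 between genotypes), and the replicate block alone gave 0 and 1 members. Over all genes the footprint calls were 21 in wild type and 56 in noNSUN, and became 32 and 87 with the block and 35 and 119 with block and offset. Of the 21, 15 were higher and 6 lower, against 9 and 11 with the offset. The block per lysate, like the other alternatives, gave no call of a member's ratio, while over all genes in noNSUN the count of 0 became 18, and 21 with the offset.

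The hsp-90 footprint change at 27 °C between genotypes ranged from -1.43 to -0.94 and that of daf-41 at 20 °C from -1.17 to -0.73 when libraries were left out. Without the filter the median of all footprint changes moved to 0.30 for heat in noNSUN and to 0.31 between genotypes at 27 °C.

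Among the changes with heat, only those that passed no test turned sign. With the offset, the log2 change of unc-45 RNA with heat was 0.063 in wild type and 0.045 in noNSUN, and the block with the offset gave 0.063 and 0.046. The ratio of cdc-37 in wild type was -0.055 without the filter and -0.00994 with the block and offset, and that of sti-1 in noNSUN was 0.083 without the filter, 0.090 with the offset and 0.12 with block and offset. With libraries left out, RNA of unc-45 ranged from -0.041 to 0.018 in wild type and -0.11 to 0.021 in noNSUN, and RNA of pph-5 from -0.15 to 0.070 and -0.19 to 0.043. Footprints of hsp-90 in noNSUN ranged from -0.090 to 0.42. In wild type the ratio of sti-1 ranged from -0.081 to 0.46, of cdc-37 from -0.19 to 0.23 and of fkb-6 from -0.046 to 0.39. In noNSUN that of hsp-90 ranged from -0.39 to 0.060, of daf-41 from -0.012 to 0.47, of sti-1 from -0.17 to 0.0096, of cdc-37 from -0.10 to 0.20 and of fkb-6 from -0.074 to 0.37. Between genotypes some small changes also turned sign with libraries left out. Among them were footprints of ahsa-1 at 20 °C (-0.32 to 0.49) and 27 °C (-0.08 to 0.41), fkb-6 at 20 °C (-0.08 to 0.47) and sti-1 at 27 °C (-0.11 to 0.22). Some RNA and ratio changes between genotypes did so too. The cause of these turns was not tested. Footprint depth limits pph-5, ahsa-1 and unc-45, which had as few as 2 or 3 counts in a library.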
